A study of Mus musculus with 12 samples.

Results

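A set of 171 oxidoreductase genes was described in GC1 cells, an established mouse spermatogonial line. The members carried the Gene Ontology term for oxidation-reduction process in the deposited annotation and none of 7 further terms, which cover lipid and cholesterol metabolism, cell division, DNA repair, chromatin organization, autophagy and focal adhesion. They also reached 1 FPKM (fragments per kilobase of transcript, a level scaled to transcript length and to the mapped fragments of the library) in at least 3 of the 12 libraries. Of 241 genes with the term, 44 carried an excluded term as well, 15 of the other 197 stayed under the FPKM limit, and 11 were left out by name because they belong to stress, one-carbon, hypoxia or chromatin genes. The table held 2281 genes, of which 2063 passed the same limit and were tested. The genes nearest to the limit were P3h2 inside it, with a third-highest value of 1.12 FPKM, and Aldh1l1 outside it, with 0.989 FPKM. In all 12 libraries 161 members were at 1 FPKM or more, while 10 were under it in at least 1 library.

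Total RNA was sequenced from 4 groups of 3 libraries, all labelled 24 h. They were GC1 cells without modification (wild type), cells with a knockout of Ythdf2 (the knockout), the same knockout with an overexpression control added (the control line), and the knockout with Setdb1 overexpressed (the Setdb1 line). All 9 knockout libraries carry the same line code in the labels, so an effect of Ythdf2 loss and a difference of that line from wild type cannot be told apart. The labels do not say whether the 3 libraries of a group were separate cultures, so the p-values measure the spread between libraries, which may be technical. Ythdf2 encodes a reader of m6A-modified RNA and Setdb1 a histone H3K9 methyltransferase. The level of Ythdf2 itself was 8.996 ± 0.43 FPKM for wild type, 6.05 ± 0.244 for the knockout, 6.14 ± 0.103 for the control line and 4.63 ± 0.383 for the Setdb1 line (SD, n = 3 each), so its transcript was lower in the knockout groups and not lost. Setdb1 was not analysed here, and its overexpression is taken from the labels.

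Oxidoreductases move electrons from 1 molecule to another, mostly through NADH, NADPH, flavins, heme, iron-sulphur centres or cysteine pairs. They build the respiratory chain, supply NADPH, remove peroxides, fold secreted proteins by forming disulphides, and make proline, serine, folate and deoxynucleotides. H6pd, which gave the set its marker, is a glucose-6-phosphate dehydrogenase inside the endoplasmic reticulum that produces NADPH there. In mouse spermatogonia low amounts of reactive oxygen species are known to take part in self-renewal and high amounts to damage DNA. The deposited term also reaches proteins that are not classical enzymes, such as the adhesion molecule Vcam1, the 14-3-3 protein Ywhag and the lipoxygenase activator Alox5ap.

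The table is a preselected set in which every gene was marked significant in the authors' deposited table, so high shares of changed genes are a property of all its genes. Of 15 spermatogonial markers looked for, 4 were in the table, namely Itga6, Cd9, Etv5 and Bcl6b. They summed to 114 to 115 FPKM in wild-type cells and to 66.4 to 80.3 FPKM in the other groups. Haemoglobin and other blood transcripts were high in 4 libraries. The 4 red cell markers in the table summed to 205 to 514 FPKM in wild-type libraries 2 and 3, to 180 to 601 FPKM in knockout libraries 1 and 2, and to at most 5.13 FPKM in the other 8. The summed level of the members lay between 5546 and 5899 FPKM, and 9 of them averaged 100 FPKM or more, led by P4hb, Fth1 and Txn1. Results between wild type and knockout are therefore also given without those 4 libraries, which leaves 1 library in each of the 2 groups and a spread estimated mostly from the other lines. In these bulk libraries fewer cells of a type and less RNA per cell cannot be told apart.

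Knockout cells were compared with wild-type cells to see which members differ between the lines. A linear model on log2(FPKM + 1) called 134 of the 171 members, or 78.4%, beside 77.3% of all tested genes. The members split into 78 higher and 56 lower in the knockout, or 45.6% and 32.7%, while over all tested genes 37.8% were higher and 39.5% lower. Their median difference was 0.07 on the log2 scale, against -0.01 for all tested genes. Most differences were small, with a median size of 0.31 among the called members. Without the 4 blood-marked libraries 101 members were called, 98 of them among the 134, and 54.6% of all tested genes were called.

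**Figure D1:**
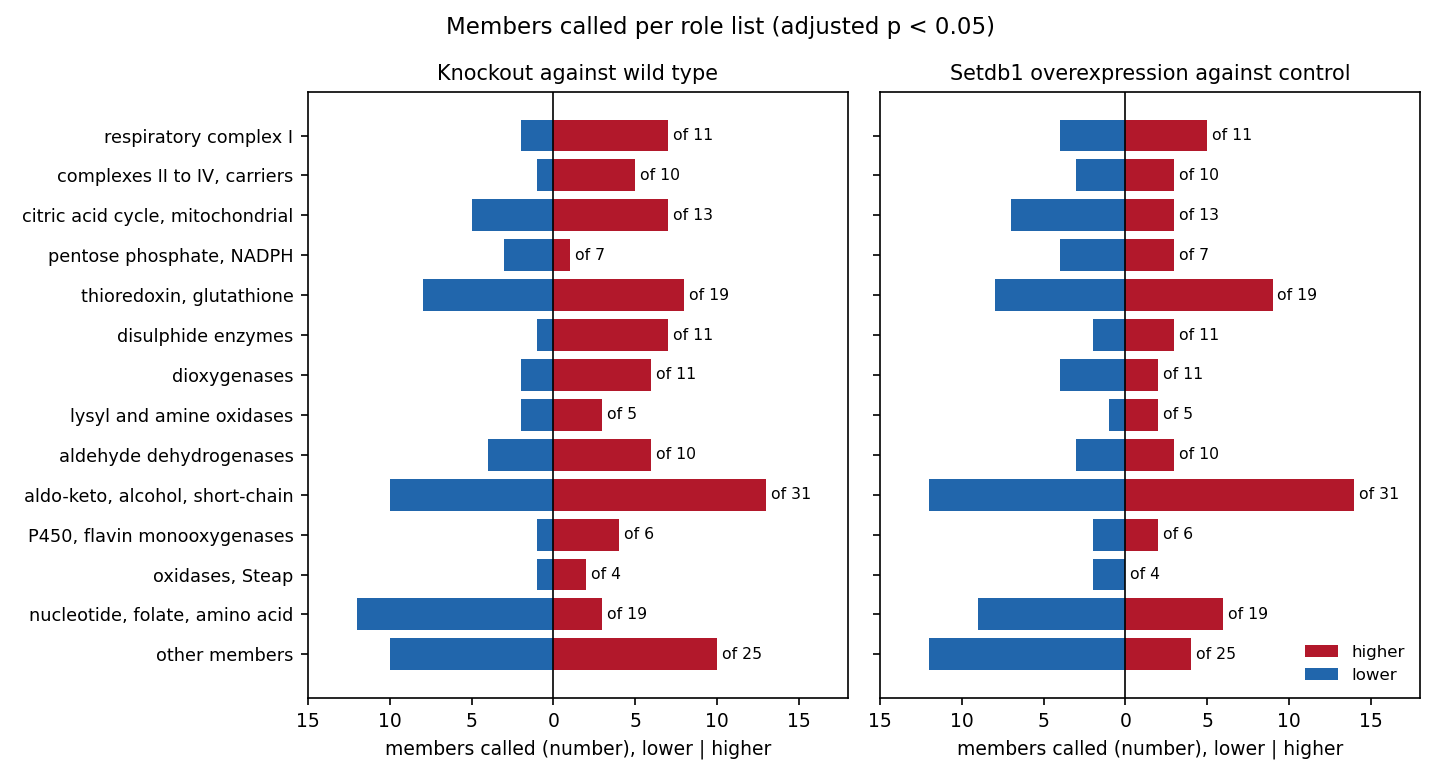
Number of members called higher (right) or lower (left) at an adjusted p under 0.05 in each role list, for knockout against wild type and for Setdb1 overexpression against its control. The number beside a bar is the size of the list, and a gene can stand on more than 1 list. Complex I has 7 higher and 2 lower in the knockout, while the nucleotide, folate and amino acid list has 3 higher and 12 lower. Over all tested genes 37.8% were higher and 39.5% lower in the knockout.

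In the respiratory chain, 7 of 11 complex I members rose in the knockout and 2 fell, while 37.8% of all tested genes rose and 39.5% fell. Among the 7, the call of Ndufb10 was lost without the 4 blood-marked libraries. Ndufa8, an accessory subunit of complex I, stood at 45.8, 45.7 and 45.9 FPKM in the wild-type libraries and at 67.3, 72.2 and 68.98 in those of the knockout. The groups did not overlap, and the rise was 0.59 (SE 0.036, adjusted p = 1.77e-07). Ndufb6, another accessory subunit, rose by 0.58 (adjusted p = 2.38e-07), from 50.4, 48.2 and 47.8 to 71.1, 77.2 and 72.1 FPKM. Ndufs1, a core subunit that carries iron-sulphur clusters, had a difference of 0.01 that did not pass (adjusted p = 0.655). The 2 members that fell were Ndufv3, by 0.15, and Ndufa4, a protein now placed in complex IV. Ndufa4 was uneven, at 78.9, 106 and 109 FPKM in the wild-type libraries and 91.2, 66.8 and 64.3 in those of the knockout. Its call was lost without wild-type library 2 or 3 or knockout library 2 or 3 (adjusted p up to 0.0819), and that of Ndufv3 without the 4 blood-marked libraries. Among complexes II to IV and the electron carriers, 5 of 10 members rose and 1 fell. The calls of Uqcr10 and Uqcrq, which rose, were lost without the 4 blood-marked libraries. Sdhc, a membrane anchor of complex II, rose by 0.31, from 30.9, 31.04 and 31.3 to 38.96, 39.6 and 37.6 FPKM. Cyb5rl, a cytochrome b5 reductase, rose by 0.59, from 0.457, 0.463 and 0.449 to 1.17, 1.28 and 1.13 FPKM, values close to the limit of 1 FPKM, which it passed only in libraries other than wild type. The member that fell was Aifm2, a quinone reductase of membranes, by 0.28.

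**Figure D2:**
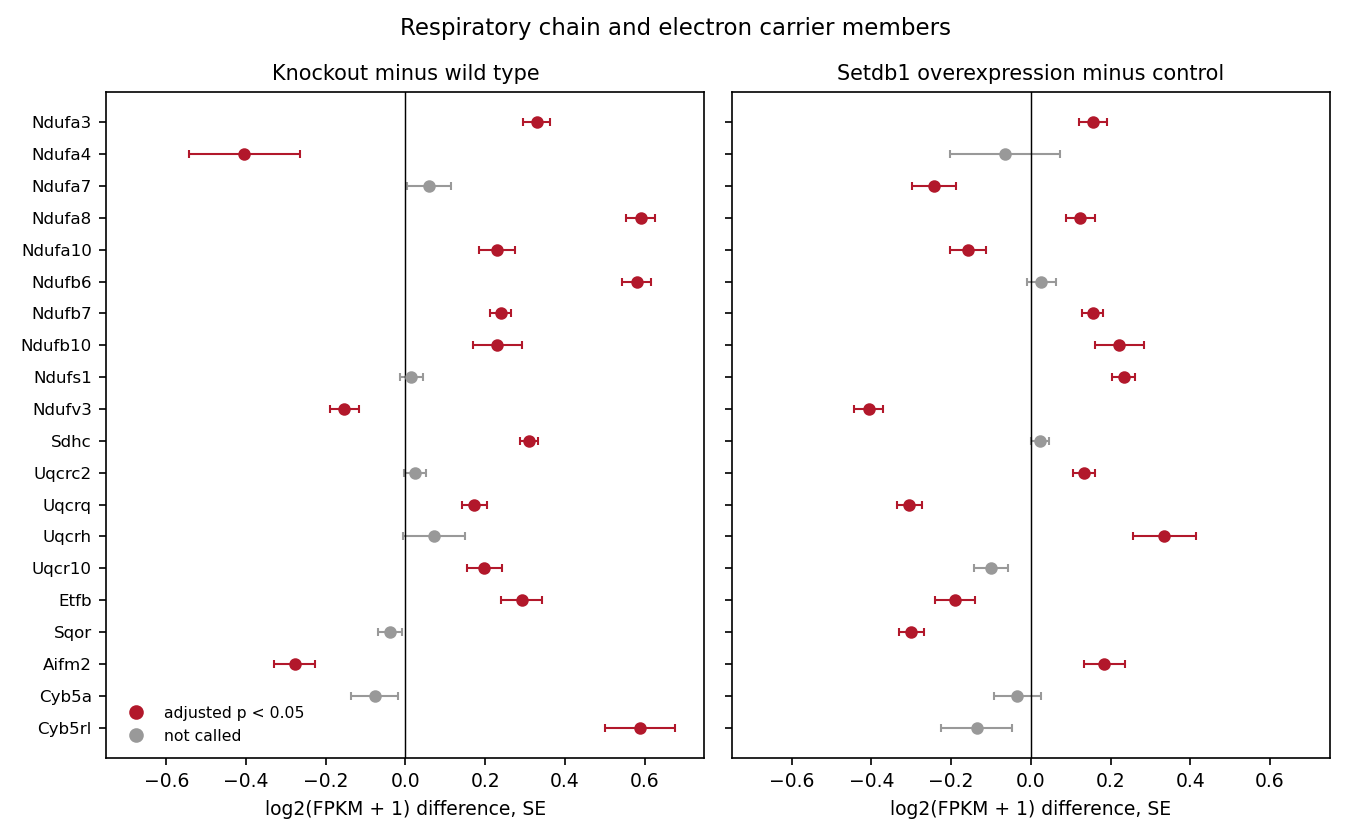
Difference in log2(FPKM + 1) with its SE for 20 of the 21 respiratory chain and electron carrier members, in the knockout against wild type (left) and in the Setdb1 line against its control (right); red points are called. Of the 20 drawn, 11 are called higher and 3 lower on the left; on the right 8 are higher and 6 lower.

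Of 13 citric acid cycle and mitochondrial dehydrogenase members, 7 rose in the knockout and 5 fell, beside 37.8% and 39.5% of all tested genes. Ogdhl, an oxoglutarate dehydrogenase-like protein, had values of 6.50, 7.34 and 6.92 FPKM in the wild-type libraries and 11.6, 11.3 and 12.6 in those of the knockout. It rose by 0.70 (SE 0.069, adjusted p = 6.96e-06). Gpd2, the mitochondrial glycerol-3-phosphate dehydrogenase, went from 27.98, 28.3 and 28.6 to 19.9, 19.3 and 20.3 FPKM, a fall of 0.49 (adjusted p = 1.68e-08). The list was thus split, and Idh3a and Idh3b, 2 subunits of the same isocitrate dehydrogenase, moved apart by -0.21 and 0.20; the call of Idh3a was lost without the 4 blood-marked libraries. Among 7 members that supply NADPH, 3 fell and 1 rose. Me1, the cytosolic malic enzyme, fell by 0.60 (adjusted p = 1.42e-08), from 45.9, 43.9 and 43.3 to 28.5, 29.3 and 28.7 FPKM.

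Of 19 thioredoxin, peroxiredoxin and glutathione members, 8 rose and 8 fell in the knockout, beside 37.8% and 39.5% of all tested genes. Txnrd1, the cytosolic thioredoxin reductase, stood at 119.9, 114 and 113 FPKM in the wild-type libraries and at 75.1, 79.2 and 76.8 in those of the knockout, a fall of 0.58 (SE 0.026, adjusted p = 2.1e-08). Its substrate Txn1 moved the other way, from 239, 235 and 235 to 286, 281 and 273 FPKM, a rise of 0.24. The quinone reductases Nqo1 and Nqo2 fell by 0.56 and 0.82, and neither overlapped with wild type. Gsr, glutathione reductase, fell by 0.25, and Sod3, the extracellular superoxide dismutase, by 0.46. Prdx1, a peroxiredoxin, fell by 0.37, a value set in part by knockout library 3 (137, 140.1 and 103 FPKM); without it the fall was 0.22 (adjusted p = 4.39e-05). Cat, the peroxisomal catalase, rose by 0.36, from 58.2, 57.05 and 59.4 to 76.03, 73.7 and 75.8 FPKM. Fth1, the ferritin heavy chain that oxidizes iron for storage, was among the highest members, at 453, 454 and 466 FPKM in wild-type cells. It read 358, 209 and 365 FPKM in the knockout, and its fall of 0.60 became 0.34 without knockout library 2 (adjusted p = 1.96e-05).

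Selenocysteine proteins did not move as 1 block. Selenow, a small muscle-rich selenoprotein, showed the largest rise of all called members, at 96.9, 94.9 and 93.4 FPKM in the wild-type libraries and 159, 157 and 158 in those of the knockout. The rise was 0.73 (SE 0.021, adjusted p = 1.36e-09). Selenon and Selenom, both of the endoplasmic reticulum, rose by 0.40 and 0.30. Txnrd1, given above, and the methionine sulphoxide reductase Msrb1, which fell by 0.30, are selenoproteins as well; the call of Msrb1 was lost without the 4 blood-marked libraries.

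In the secretory pathway, 7 of 11 protein disulphide members rose and 1 fell. Among the 7, the calls of P4hb and Tmx4 were lost without the 4 blood-marked libraries, and that of P4hb also under quantile normalization. Qsox1, a sulphydryl oxidase, rose by 0.53, from 6.19, 5.69 and 6.15 to 8.78, 9.42 and 9.24 FPKM, and Pdia3, a disulphide isomerase of glycoproteins, by 0.21, from 216, 214 and 217 to 246, 247 and 253 FPKM. Pdia6, the member that fell, did so by 0.13. Of the 29 members annotated to the endoplasmic reticulum, 15 rose and 4 fell. Of all 171 members 45.6% rose and 32.7% fell, beside 37.8% and 39.5% of all tested genes. Among 11 dioxygenase members, 6 rose and 2 fell. Those that rose included the collagen hydroxylases P4ha2, by 0.31, and Plod1, by 0.38, and the oxygen-sensing prolyl hydroxylase Egln2, by 0.49 (adjusted p = 3.12e-07). The lysyl oxidases, which crosslink collagen, split, as Loxl3 rose by 0.36 and Loxl4 fell by 0.48.

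The largest falls in the knockout came from several families. 4930438A08Rik, which the deposited annotation gives the enzyme class of L-amino-acid oxidases, stood at 23.96, 24.7 and 24.7 FPKM in the wild-type libraries and at 10.49, 10.2 and 10.47 in those of the knockout. Its fall of 1.16 (SE 0.031, adjusted p = 9.54e-10) was the largest of the set. Hephl1, a copper ferroxidase, fell by 1.10, from 3.22, 3.09 and 2.89 to 0.934, 0.819 and 0.944 FPKM, and passed the FPKM limit through its wild-type libraries. Gsta1, a glutathione transferase with close paralogs, fell by 1.05. Of the retinoid enzymes, Rdh10, which makes retinaldehyde from retinol, fell by 0.73, from 12.3, 11.9 and 11.7 to 6.91, 6.39 and 7.15 FPKM, and Dhrs3, which runs the reverse reaction, by 0.88, from 8.91, 8.41 and 8.25 to 3.78, 4.14 and 4.63 FPKM. Aldh1a1 and Aldh1a7, close paralogs between which reads can be split, each fell by 0.53. Rdh10 and Dhrs3 belong to the 31 aldo-keto, alcohol and short-chain dehydrogenases, of which 13 rose and 10 fell. Over all tested genes 37.8% rose and 39.5% fell. Dcxr, a xylulose and dicarbonyl reductase, rose by 0.64, from 26.7, 26.3 and 25.5 to 40.9, 41.8 and 41.8 FPKM. Dhrs4 rose by 0.56 but was not called without the 4 blood-marked libraries (adjusted p = 0.125).

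Nucleotide, folate and amino acid enzymes were mostly lower in the knockout, with 12 of 19 members lower, 3 higher and a median of -0.18. Over all tested genes 39.5% were lower and 37.8% higher. Calls lost without the 4 blood-marked libraries included those of Dus4l, Pycr1 and Rrm1 among the lower members and Mthfd1 among the higher. Gmpr, which converts GMP to IMP, fell by 0.60 (adjusted p = 4.97e-06), from 8.98, 8.55 and 8.78 to 4.83, 6.06 and 5.56 FPKM. Aldh18a1, the first enzyme of proline synthesis from glutamate, fell by 0.42, and Mthfd1l, a mitochondrial enzyme that releases formate for folate chemistry, by 0.39.

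Of 10 aldehyde dehydrogenases, 6 rose and 4 fell in the knockout, beside 37.8% and 39.5% of all tested genes. Aldh2, the mitochondrial enzyme that clears acetaldehyde, rose by 0.25, from 41.5, 43.1 and 41.6 to 50.01, 50.8 and 49.9 FPKM, and Aldh7a1, which acts in lysine breakdown, by 0.33. Neither passed in the Setdb1 line against its control, with differences of -0.01 (adjusted p = 0.648) and 0.04 (adjusted p = 0.431). Maoa, the monoamine oxidase of the outer mitochondrial membrane, read 61.9, 63.5 and 64.1 FPKM in the wild-type libraries and 77.2, 77.8 and 78.3 in those of the knockout, a rise of 0.30. Among the 25 members on no role list, 10 rose and 10 fell. Ccs, the copper chaperone of superoxide dismutase, rose by 0.29, from 20.8, 21.4 and 22.1 to 24.8, 26.95 and 27.5 FPKM. Higd2a, a factor for assembly of respiratory complexes, fell by 0.38, from 88.3, 96.6 and 95.03 to 68.9, 74.2 and 71.2 FPKM.

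The control line was compared with the unmodified knockout as a background for the overexpression, and few members differed. The model called 20 members, or 11.7%, beside 8.68% of all tested genes. Of these 16 were higher (3.64% of all tested genes were higher) and 4 lower (5.04% were lower). Impdh1, an enzyme of GMP synthesis, read 16.6, 14.1 and 17.1 FPKM in the knockout and 23.3, 23.4 and 23.1 in the control line, a rise of 0.52 (adjusted p = 0.0352). P4ha2 rose by 0.17, 4930438A08Rik by 0.19, and Rrm2, the small subunit of ribonucleotide reductase, fell by 0.14. These last 3 and Aldh18a1, which rose by 0.11, were the 4 calls that held when any 1 of the 6 libraries was left out; that of Impdh1 was lost without any 1 of them. Without the 4 blood-marked libraries only Aldh18a1 of the 20 was still called (adjusted p = 0.0436), with 2 members newly called, and 1.99% of all tested genes passed. With 1 of the 6 libraries left out, 6 to 10 of the 20 were still called, and 4.51% to 6.2% of all tested genes passed.

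Setdb1 overexpression was compared with the control line, with 3 libraries on each side, none of them blood-marked. The spread behind the p-values still came from all 12 libraries, the 4 blood-marked ones included. The model called 123 members, or 71.9%, beside 67.9% of all tested genes. Of these 56 were higher and 67 lower, or 32.7% and 39.2%, while over all tested genes 36.1% were higher and 31.8% lower. The medians were near 0, at 0.0005 for the members and 0.02 for all tested genes. Differences of at least 0.5 on the log2 scale were called lower in 18 members and higher in 4. The same count was not made over all tested genes, so it shows no trait of the members. Between the same libraries 132 of the 171 members did not overlap, or 77.2%, beside 73.0% of all tested genes.

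The 8 largest falls with Setdb1 overexpression, among called members whose groups did not overlap, included Aldh18a1, Pycr1 and Phgdh of the nucleotide, folate and amino acid list. Aldh18a1 stood at 66.8, 66.7 and 66.9 FPKM in the control line and at 29.9, 29.99 and 30.1 in the Setdb1 line. The fall was 1.13 (SE 0.017, adjusted p = 1.3e-11). Pycr1, the mitochondrial reductase that completes proline synthesis, read 8.90, 10.4 and 10.6 FPKM against 4.01, 4.25 and 4.70, a fall of 1.04 (adjusted p = 4.23e-07). Phgdh, the first enzyme of serine synthesis from glycolysis, read 91.96, 94.5 and 91.9 FPKM against 53.5, 54.5 and 54.8, a fall of 0.76 (adjusted p = 7.39e-08). Mthfd1l fell by 0.66, from 10.9, 11.8 and 11.4 to 6.16, 7.23 and 7.15 FPKM. In each of these 4 the highest Setdb1 library lay under the lowest control library. Over the whole list of nucleotide, folate and amino acid members 9 fell and 6 rose, beside 31.8% and 36.1% of all tested genes. Those that rose included both ribonucleotide reductase subunits, which make deoxynucleotides. Rrm1 rose by 0.36, from 25.4, 25.3 and 26.1 to 33.1, 33.2 and 33.3 FPKM, and Rrm2 by 0.39, from 34.7, 34.7 and 35.5 to 47.5, 45.2 and 45.9 FPKM. Mthfd1, the cytosolic folate enzyme, rose by 0.20.

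4930438A08Rik had the largest difference of any member, at 11.8, 11.7 and 12.4 FPKM in the control line and 3.63, 3.38 and 3.50 in the Setdb1 line. It fell by 1.53 (SE 0.031, adjusted p = 1.23e-10), in addition to its lower level in the knockout. Steap1, a cell-surface protein of the Steap family, fell by 1.02 (adjusted p = 2.93e-08), from 14.6, 14.4 and 15.004 to 6.89, 6.30 and 6.97 FPKM. Selenbp1, a methanethiol oxidase, read 2.43, 2.75 and 3.11 FPKM against 0.950, 1.005 and 0.999, a fall of 0.92. Adh7, an alcohol dehydrogenase that also acts on retinol, fell by 0.71, and Dus4l, a tRNA dihydrouridine synthase, by 0.77. P4hb, the most abundant member and both a disulphide isomerase and a subunit of collagen prolyl hydroxylase, fell from 547, 554 and 559 to 456, 454 and 456 FPKM. Its call was lost under quantile normalization (adjusted p = 0.0537). The partner subunit P4ha2 fell by 0.37, from 37.9, 39.6 and 39.5 to 29.4, 29.96 and 30.6 FPKM. Of 12 dioxygenases that are in the table but not in the set, 9 were lower in the Setdb1 line and 0 higher. Of the 11 dioxygenase members 4 were lower and 2 higher. Over all tested genes 31.8% were lower and 36.1% higher.

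**Figure D3:**
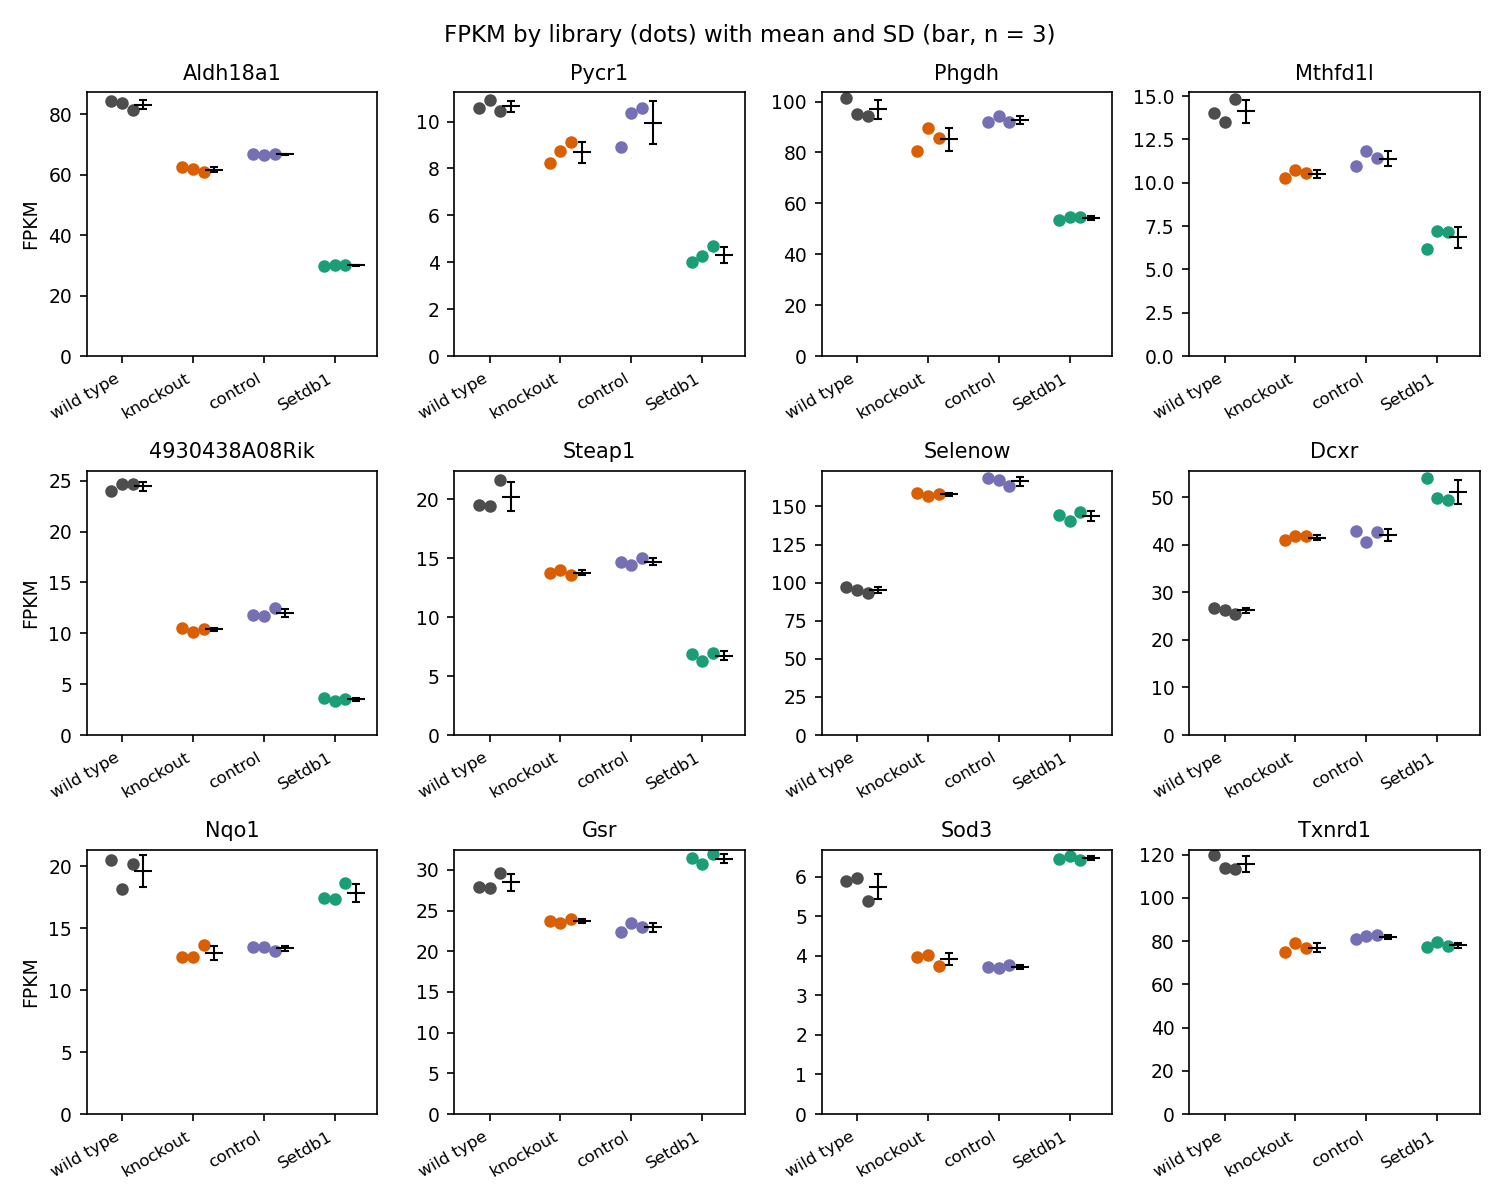
FPKM of 12 members in each library (dots) with the mean and SD of the 3 libraries of a group (bar); "control" and "Setdb1" are the 2 overexpression lines made in knockout cells. Aldh18a1, Pycr1, Phgdh, Mthfd1l, 4930438A08Rik and Steap1 are lowest in the Setdb1 line, while Nqo1, Gsr and Sod3 are lower in the knockout and the control line than in the other groups.

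The members that rose in the Setdb1 line came from several lists. Sod3 read 3.71, 3.68 and 3.76 FPKM in the control line and 6.45, 6.53 and 6.42 in the Setdb1 line, a rise of 0.66 (SE 0.038, adjusted p = 2.34e-07). Gsr rose by 0.43, from 22.4, 23.5 and 23.0005 to 31.5, 30.7 and 31.9 FPKM, and Nqo1 by 0.39, from 13.5, 13.5 and 13.2 to 17.4, 17.4 and 18.7 FPKM. Pgd, which makes NADPH in the pentose phosphate pathway, rose by 0.31, from 48.5, 47.7 and 47.7 to 60.2, 59.1 and 59.2 FPKM, and Idh1, the cytosolic isocitrate dehydrogenase, by 0.31. Over the thioredoxin, peroxiredoxin and glutathione list 9 members rose and 8 fell, and among 7 NADPH suppliers 3 rose and 4 fell. Neither list moved 1 way, and over all tested genes 36.1% rose and 31.8% fell. Prdx1 fell by 0.30, from 144, 139 and 141 to 112, 114 and 118 FPKM. Txnrd1 read 81.1, 82.2 and 82.9 FPKM against 77.2, 79.5 and 77.8, and its small difference of -0.07 was lost as a call without control library 2 or 3 or Setdb1 library 1 or 3 (adjusted p up to 0.103). The largest rise was that of Mical2, a flavin monooxygenase that oxidizes actin, at 14.95, 14.3 and 11.4 FPKM in the control line and 23.7, 21.8 and 23.2 in the Setdb1 line, or 0.72 (adjusted p = 1.94e-05). Aldh1a1 rose by 0.55, Gfod1, a protein with an oxidoreductase domain, by 0.53, and Vcam1 by 0.46.

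In the respiratory chain the Setdb1 line showed both directions, with 5 of 11 complex I members higher and 4 lower, and 3 of 10 further members higher and 3 lower. Ndufv3 fell by 0.41, from 28.9, 28.3 and 30.5 to 22.1, 20.99 and 22.2 FPKM, while Ndufs1 rose by 0.23, from 11.1, 10.9 and 11.6 to 13.3, 13.4 and 13.2 FPKM. In complex III, Uqcrq fell by 0.30 and Uqcrh rose by 0.33. The Uqcrh value rests in part on Setdb1 library 3 (74.9, 81.1 and 98.7 FPKM) and was 0.22 without it (adjusted p = 0.00119). Sqor, which passes electrons from sulphide to quinone, fell by 0.30, from 33.9, 35.7 and 33.6 to 27.8, 27.7 and 27.8 FPKM. Of the citric acid cycle and mitochondrial dehydrogenases 3 of 13 rose and 7 fell, with the largest difference in Ivd, the isovaleryl-CoA dehydrogenase of leucine breakdown, at 0.36. Over all 73 members annotated to the mitochondrion, 22 rose and 32 fell in the Setdb1 line, against 37 and 23 in the knockout. Of all 171 members 32.7% rose and 39.2% fell in the Setdb1 line, against 45.6% and 32.7% in the knockout. Of all tested genes 36.1% rose and 31.8% fell, against 37.8% and 39.5%. Whether the mitochondrial members differ from the whole set was not tested.

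Knockout against wild type and Setdb1 line against control line share no library, so their calls can be set side by side. Members called higher in the knockout and lower in the Setdb1 line numbered 27, or 34.6% of the 78 and 40.3% of the 67, beside 29.8% and 35.4% over all tested genes. Members called lower and then higher numbered 21, or 37.5% of the 56 of either list, beside 33.7% and 37.0% over all tested genes. In the same direction, 23 were higher in both, or 29.5% and 41.1% of the lists beside 37.1% and 38.8% over all tested genes. A further 23 were lower in both, or 41.1% and 34.3% beside 31.5% and 39.2%. The difference of the Setdb1 effect and the knockout effect passed in 135 members, or 78.9%, beside 74.3% of all tested genes. Sod3, Gsr, Nqo1, Rrm2 and Gfod1 were lower in the knockout and higher in the Setdb1 line; the knockout call of Gfod1 was lost without the 4 blood-marked libraries (adjusted p = 0.0503). Cyp4f13, a cytochrome P450 with close paralogs, had the opposite order, as it rose by 0.50 in the knockout and fell by 0.31 with Setdb1. Pdia3 rose by 0.21 in the one and 0.21 in the other, and the test of the difference did not pass (adjusted p = 0.999).

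**Figure D4:**
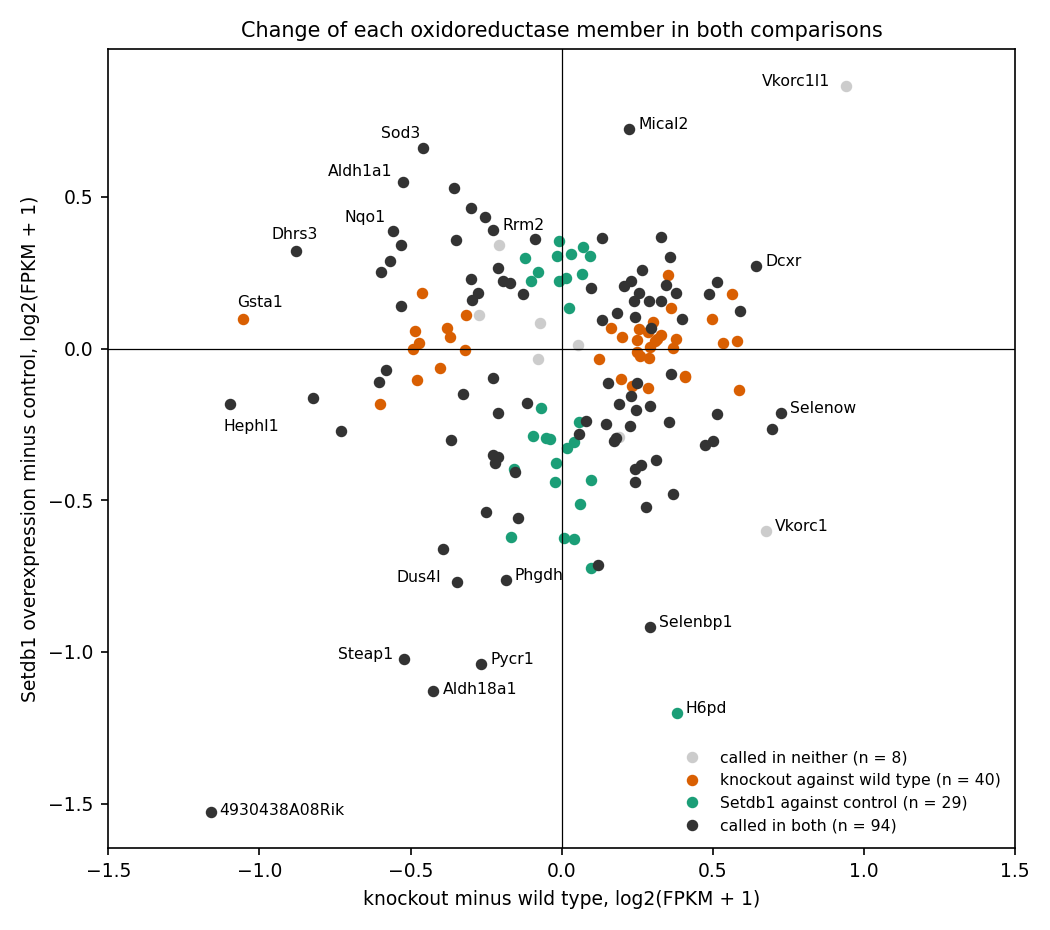
Difference in log2(FPKM + 1) of each of the 171 members in the knockout against wild type (horizontal) and in the Setdb1 line against its control (vertical), coloured by where it was called. Called in both comparisons were 94 members, spread over all 4 quadrants; 4930438A08Rik lies lowest in both directions.

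Some members differed in the Setdb1 line after a small or uncalled difference in the knockout. Cp, the ferroxidase ceruloplasmin, read 16.1, 16.5 and 16.5 FPKM in the wild-type libraries and 16.6, 16.6 and 18.1 in those of the knockout, a difference of 0.06 that did not pass (adjusted p = 0.129). It read 17.5, 17.3 and 16.6 FPKM in the control line and 11.7, 11.5 and 12.03 in the Setdb1 line, a fall of 0.51 (adjusted p = 6.97e-07), and the difference of the effects passed (adjusted p = 2.8e-06). Dhrs7, a short-chain dehydrogenase, fell by 0.63 with Setdb1, from 9.80, 10.05 and 10.2 to 5.64, 6.29 and 6.49 FPKM, after a knockout difference of 0.04 (adjusted p of the difference = 1.74e-05). Cpox, an enzyme of heme synthesis, fell by 0.38, after -0.02 (adjusted p of the difference = 5.96e-05). The reverse order was seen in Gpd2 and Gsta1, whose differences with Setdb1 were -0.0008 and 0.10 and did not pass, while the difference of the effects did (adjusted p = 2.5e-07 and 0.000104).

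Against wild type, the Setdb1 line had 144 members called, or 84.2%, beside 86.1% of all tested genes. Of these 80 were higher (40.8% of all tested genes) and 64 lower (45.3%). This contrast shares its libraries with the other comparisons, so values are only set side by side. Aldh1a1 read 2.74, 3.36 and 2.96 FPKM in wild-type cells and 3.15, 3.27 and 2.85 in the Setdb1 line, a difference of 0.03 that did not pass (adjusted p = 0.745). The difference of Rrm2, 0.02, did not pass either (adjusted p = 0.411). Sod3 and Gsr were above wild type, by 0.15 and 0.14. Dcxr had the largest rise over wild type at 0.94, and 4930438A08Rik the largest fall at 2.50.

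H6pd was among the most uneven members. Its 3 wild-type libraries read 2.50, 6.89 and 7.14 FPKM, those of the knockout 10.3, 3.01 and 9.92, those of the control line 10.6, 9.86 and 10.995 and those of the Setdb1 line 2.73, 2.61 and 8.22. The low values, between 2.50 and 3.01 FPKM, fell in wild-type library 1, knockout library 2 and Setdb1 libraries 1 and 2, so 3 of the 4 groups held both low and high libraries. The Setdb1 line was lower than the control line, with a difference of -1.20 (SE 0.49, adjusted p = 0.0489), and the groups did not overlap. A two-sided exact permutation test gave p = 0.1, the smallest that 3 against 3 allows. The call was lost without any 1 of the control libraries and without Setdb1 library 1 or 2; its highest adjusted p was 0.149, with a fall of 0.97 without Setdb1 library 2. It was also lost under 5 other settings, with adjusted p up to 0.0588. The differences in the other comparisons did not pass, at 0.38 for the knockout, 0.54 for the control line against the knockout and -0.29 for the Setdb1 line against wild type. Without wild-type library 1 the knockout difference was -0.02. Without the 4 blood-marked libraries, which leaves 1 library in each of the 2 groups, it was 1.64.

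Within a group, values differed at least 2-fold between libraries in 5 members, or 2.92%, beside 3.59% of all tested genes. These were Vkorc1l1, Alox5ap, H6pd, Steap2 and P3h2. Vkorc1l1, a vitamin K epoxide reductase, read 9.39, 0.587 and 0.550 FPKM for wild type, 2.87, 4.04 and 8.29 for the knockout, 0.592, 1.53 and 0.506 for the control line and 7.14, 2.11 and 0.457 for the Setdb1 line. Its paralog Vkorc1 read 13.9, 23.3 and 12.3, 29.9, 33.1 and 17.6, 31.4, 31.995 and 17.8 and 15.8, 17.4 and 17.7 FPKM in the same order. Neither was called in either comparison, although their differences were as large as 0.94 and 0.68 in the knockout. Without wild-type library 1 the difference of Vkorc1l1 was 1.85 and passed (adjusted p = 0.023). The difference of Vkorc1 passed in the knockout without wild-type library 2 (0.94, adjusted p = 0.0146) or knockout library 3 (0.94, adjusted p = 0.0132). With Setdb1 it was -0.60 and passed without control library 3 (-0.87, adjusted p = 0.0247). Qdpr, which recycles tetrahydrobiopterin, was high at 29.1, 26.2 and 25.3 FPKM in wild-type cells and varied from 15.6, 24.3 and 28.01 in the knockout. Steap2, a metalloreductase related to Steap1, read 2.31, 4.88 and 3.09 FPKM in the wild-type libraries. In those of the knockout it read 3.46, 3.52 and 1.78 FPKM. It was lower in the Setdb1 line, at 1.61, 1.60 and 1.49 FPKM against 2.73, 2.48 and 3.75 in the control line, but this call was lost without Setdb1 library 1, 2 or 3 or control library 1 or 3 (adjusted p up to 0.115). Alox5ap read 0.222, 1.07 and 1.69 FPKM in the wild-type libraries and 1.32, 1.34 and 0.0872 in those of the knockout, and was at most 0.316 FPKM in the other 6 libraries. Its 4 values above 1 FPKM were those of the 4 blood-marked libraries, and the part of blood cells in it was not tested. H6pd, Vkorc1 and Vkorc1l1 did not follow the red cell markers in that way. Within wild type and knockout, Vkorc1l1 was highest in wild-type library 1 and knockout library 3, which were not blood-marked. Its knockout difference was -0.16 without the 4 blood-marked libraries. Vkorc1l1 also varied from 0.457 to 7.14 FPKM in the Setdb1 line, which held no such library, and the cause was not tested.

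**Figure D5:**
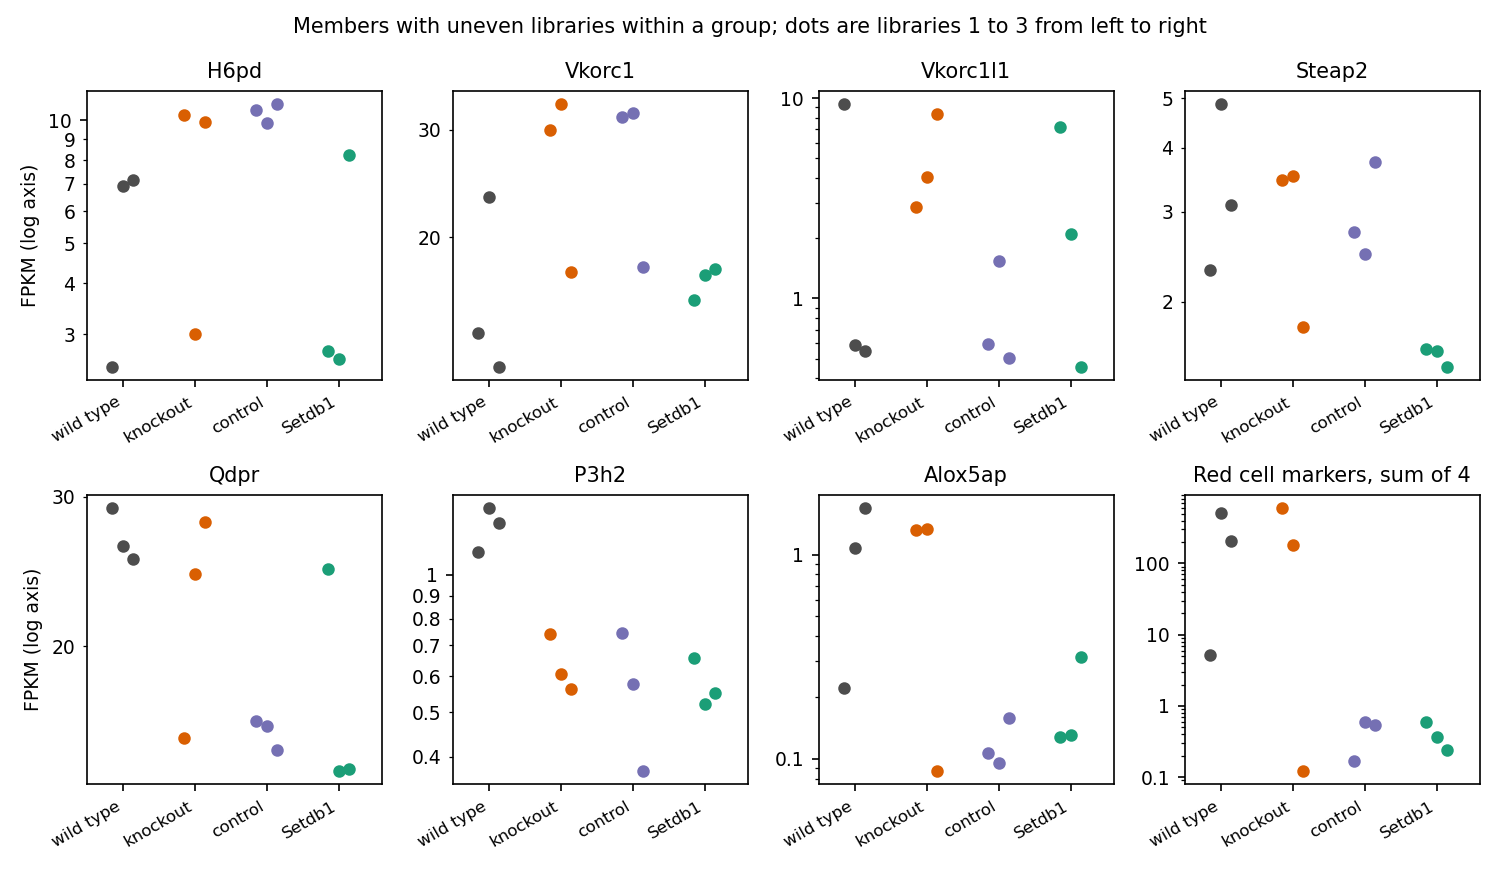
FPKM by library on a log axis for 7 members with uneven values and for the sum of the 4 red cell markers; the dots of a group are libraries 1 to 3 from left to right. H6pd is low in 4 libraries of 3 groups, and Alox5ap is highest in the same 4 libraries as the red cell markers.

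Promoter sequence was read for the 139 members found in RefSeq (GRCm38.p6), from 250 bases before to 50 bases after the transcription start, on both strands. The antioxidant response element, searched as TGACNNNGC, stood in 15.1% of these promoters, beside 17.8% of those of tested genes and 13.99% of all genes in the table of promoters. The response element of C/EBP and ATF factors, TGATGNAA, stood in 5 member promoters, or 3.6%, beside 2.48% and 4.51%. The hypoxia core ACGTG stood in 30.9% against 30.2% of tested genes, and the E-box CACGTG, which contains it, in 9.35% against 11.7%. Windows around single matches are shown for 5 members whose values are given above, because 2 of the deepest falls with Setdb1 hold the C/EBP and ATF letters and 3 enzymes of thiol or serine metabolism hold the antioxidant letters. Capitals mark the match, which can be read on either strand, and each line runs 5′ to 3′ on the strand of the gene.
Pycr1, chr11:120643819-120643876, minus strand: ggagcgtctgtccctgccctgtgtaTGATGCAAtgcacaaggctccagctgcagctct
4930438A08Rik, chr11:58274770-58274827, plus strand: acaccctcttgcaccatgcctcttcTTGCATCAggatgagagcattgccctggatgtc
Phgdh, chr3:98339989-98340047, minus strand: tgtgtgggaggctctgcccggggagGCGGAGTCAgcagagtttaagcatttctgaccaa
Prdx1, chr4:116685441-116685499, plus strand: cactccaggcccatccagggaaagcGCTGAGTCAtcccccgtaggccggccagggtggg
Txnrd1, chr10:82859089-82859147, plus strand: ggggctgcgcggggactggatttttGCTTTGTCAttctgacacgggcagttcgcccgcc
A match is a description of the letters and no evidence of binding. All 5 members shown were called lower with Setdb1, but members that rose hold the letters too. The antioxidant letters stood in 12 of 57 promoters of members lower with Setdb1 and in 5 of 45 of those higher, among them Mical2, Pgd and Rrm2. For the C/EBP and ATF letters these counts were 3 of 57 and 1 of 45. Aldh18a1, which fell beside Pycr1, held the E-box letters and neither the antioxidant nor the C/EBP and ATF letters.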

How the data were processed

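RNA-seq of 12 libraries in 4 groups of 3 was analysed from 1 table of FPKM values deposited by the authors, with 1 p-value and 1 q-value per gene in the authors' deposited table (highest q 0.113). Tools listed per the submitters' processing notes, without role or version, are cutadapt, HISAT2, StringTie, edgeR and DESeq2; the sources used here give no build. Read depth is unknown, so no interval from counting can be stated. The lowest value, 1e-04, stood for 0. All 2281 gene IDs matched a symbol in GENCODE M21.

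Values were analysed as log2(FPKM + 1), a scale that understates the change of low genes. Genes at 1 FPKM or more in at least 3 libraries (2063) were fitted with limma-trend (limma 3.58.1, R 4.3.3), 1 mean per group over 12 libraries, with two-sided p-values adjusted by Benjamini-Hochberg over the 2063 genes and called under 0.05. The fit was tested on simulated data. Alternatives were other pseudocounts, filters and normalizations, a robust prior, the 2 groups alone, a replicate block, a blood term, and fits without libraries. Named by rule were the 8 largest rises and falls per comparison, H6pd, and the largest difference of each role list. Other members were chosen after their values were seen. The members and the lists were chosen with earlier results of these data known. Members of paralogous families (Akr1b, Akr1c, Aldh1a, Cyp4f, Gsta) may share reads. Results of 3 members are not reported here, and protein sequences were not used.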

Additional observations from a re-analysis of the deposited data

How the results depend on the processing

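Counts of called members stayed within 1.5 times under all alternatives run in the knockout comparison with wild type, in both comparisons of the Setdb1 line, and for the difference of the effects. For the control line against the knockout, the model gave 20 calls (16 higher, 4 lower). These became 8 (6 and 2) with only the 2 groups and 10 (8 and 2) with a replicate block. They became 6 (5 and 1) with a blood term and 3 (3 and 0) without the 4 blood-marked libraries. Leaving out 1 library of these 2 groups gave 7 to 12 calls, 5 to 9 higher and 1 to 5 lower. The fall of H6pd with Setdb1 lost its call with a pseudocount of 0.1 (-1.40), no filter or a robust prior (-1.20 each), quantile normalization (-1.19) and the blood term (-1.20); leaving out 1 library gave -1.65 to -0.97. Among the named members, reversed were Vkorc1l1 in the knockout without the blood-marked libraries (-0.16), H6pd against wild type in the Setdb1 line without them (0.51) and H6pd in the knockout without wild-type library 1, where leaving out 1 library gave -0.018 to 0.87; none of these was called. Of the called members, Vat1 reversed in the knockout under quantile normalization (0.08 became -0.06, adjusted p = 0.0447). The cause was not tested. Libraries with the same number were not treated as pairs. In the knockout against wild type the correlations of their deviations were -0.70, 0.41 and -0.50 for libraries 1 to 3. That comparison holds the 4 blood-marked libraries, and their part in these values was not tested. In the other comparisons the correlations ranged from -0.04 to 0.09. Whether same-numbered libraries were prepared together cannot be told from these values. Among named members a call was lost in 74 further pairs of a call and an alternative, most of them in the control line against the knockout. A call lost under several alternatives counts several times. Depth is unknown and sets no stated limit here.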
